A study of Macaca mulatta with 12 samples.

Results

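The genes described here control plasminogen activation and blood clotting at the cell surface. The set was the urokinase receptor PLAUR, urokinase PLAU, the urokinase inhibitor SERPINB2, tissue factor F3, tissue factor pathway inhibitor TFPI, thrombomodulin THBD and the platelet and matrix protein thrombospondin THBS1. They were chosen by name, with earlier results of these data known, and found in the deposited count table by symbol or by Ensembl identifier. Of the 7 genes, 6 had a row among the 32386 genes of the table. F3 had none and was not analysed here.

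RNA was sequenced from blood macrophages of rhesus macaques (Macaca mulatta) that had been sorted as CD14+CD16-CD163+. All 4 groups came from animals given back their own CD34+ cells after CRISPR/Cas9 treatment, in a study whose title names mutation of TET2, and no unedited group was among the samples used here. The Early CTL and Early ACT groups were sorted 4.5 months after transplant, and the Late CTL and Late ACT groups 19 months after it. Each well held 250000 cells for 8 h, and the ACT wells received LPS at 100 ng/ml plus 20 ng/ml of interferon-gamma, while the CTL wells were left unstimulated. That is the protocol's account, and the treatment label names LPS alone. Each group had 3 libraries, 12 in all.

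The labels do not say whether replicates were animals or wells. The p-values set the difference between groups against the spread among libraries within groups, estimated over all 4 groups, and that spread may be technical. A library outside a comparison thus also bears on its p-values. The labels give neither the age of the animals, nor the share of edited cells, nor a processing date. Time after transplant and any batch tied to it therefore cannot be told apart. RNA from whole wells cannot tell a change in the share of cells that express a gene from a change in RNA per cell.

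Urokinase cuts plasminogen to plasmin, the protease that dissolves fibrin, and its receptor, which is held in the membrane by a lipid anchor, focuses this activity on the cell surface. SERPINB2, also called plasminogen activator inhibitor type 2, is made in large amounts by monocytes and macrophages exposed to bacterial products. Thrombomodulin binds thrombin and turns it towards activation of protein C, an anticoagulant, while TFPI blocks tissue factor with factor VIIa.

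Levels are given as CPM, the usual measure of a gene's reads relative to all reads of its library, after scaling with the TMM factors of edgeR. Fold changes came from edgeR's quasi-likelihood test over all 12 libraries. They are log2 values with their standard error, and adjusted p-values are by Benjamini-Hochberg across all 11826 genes tested, with a threshold of 0.05. All 6 genes passed the low-count filter. Library totals ran from 3910680 to 12972505 counts. The library Early ACT 1 lay far from the others of its group on the second principal component (-61.46, against 1.49 and 1.79). Calls lost without it are named below. Other values also shifted without it, and not all are given both ways. With time in stimulated cells, the log2 fold change went from -0.9 to -0.72 for PLAUR and from -0.62 to -0.87 for CD47. TET2 was at 248.4 ± 7.27 CPM in Early CTL, 321.9 ± 32.1 in Early ACT, 410.4 ± 3.62 in Late CTL and 425.1 ± 13.3 in Late ACT (SD, n = 3), and as the edited share is not given, its level does not check the editing.

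The cells carried the labelled markers CD14 and CD163. The gene for CD16 had no row that could be named, so the CD16- part of the label was not checked. CD14 ran from 1374 to 3214 CPM and CD163 from 505.6 to 1520 CPM over the 12 libraries. The summed level of 11 CD14 monocyte and macrophage markers was 12742 to 13323 CPM in Early CTL and 12143 to 12474 in Early ACT. It was 7277 to 7754 in Late CTL and 6833 to 7095 in Late ACT, so this list moved with time after transplant in the same libraries as the results below, and its part in them was not tested. Endothelial cells and platelets also express THBD, TFPI and THBS1. The 11 endothelial markers with a row summed to 15.9 to 26 CPM, and 8 of them stayed under 5 CPM in every library. Of 11 platelet markers, 9 stayed under 5 CPM in every library, with PPBP at 0.73 to 2.63 CPM, while TUBB1 ran from 326.5 to 573.8 CPM and TREML1 from 18.2 to 55.2 CPM. The platelet list summed to 451.4 to 632.4 CPM in the early and 353.6 to 422.6 CPM in the late libraries. The sum of 7 neutrophil markers was 652.1 to 760.0 CPM early and 329.1 to 413.7 CPM late, almost all from CSF3R and CAMP. The granule gene CAMP ran from 63.4 to 151.4 CPM, while MPO and ELANE stayed at or under 3.96 and 1.32 CPM. The part of these lists in the results was not tested.

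In unstimulated macrophages, PLAUR, SERPINB2 and TFPI were higher at 19 months than at 4.5 months, by 1.71-fold to 1.79-fold. In stimulated macrophages the picture was different: PLAUR, PLAU, THBD and THBS1 were lower at 19 months, and TFPI remained higher. Stimulation raised PLAUR, SERPINB2, THBD and THBS1 in the early cells, where 7.23% of all genes tested were called. The THBD call was lost in 3 of 19 alternatives, among them leaving out Early ACT 1. On stimulation of the late cells none of the 6 genes passed the test, and 0 of all 11826 genes tested did. By a test of the difference itself, the response to stimulation was smaller at 19 months for PLAUR and SERPINB2, and for PLAU it went from 0.40 early to -0.38 late (log2), neither of them called, a difference lost in 9 of 18 alternatives.

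**Figure D1:**
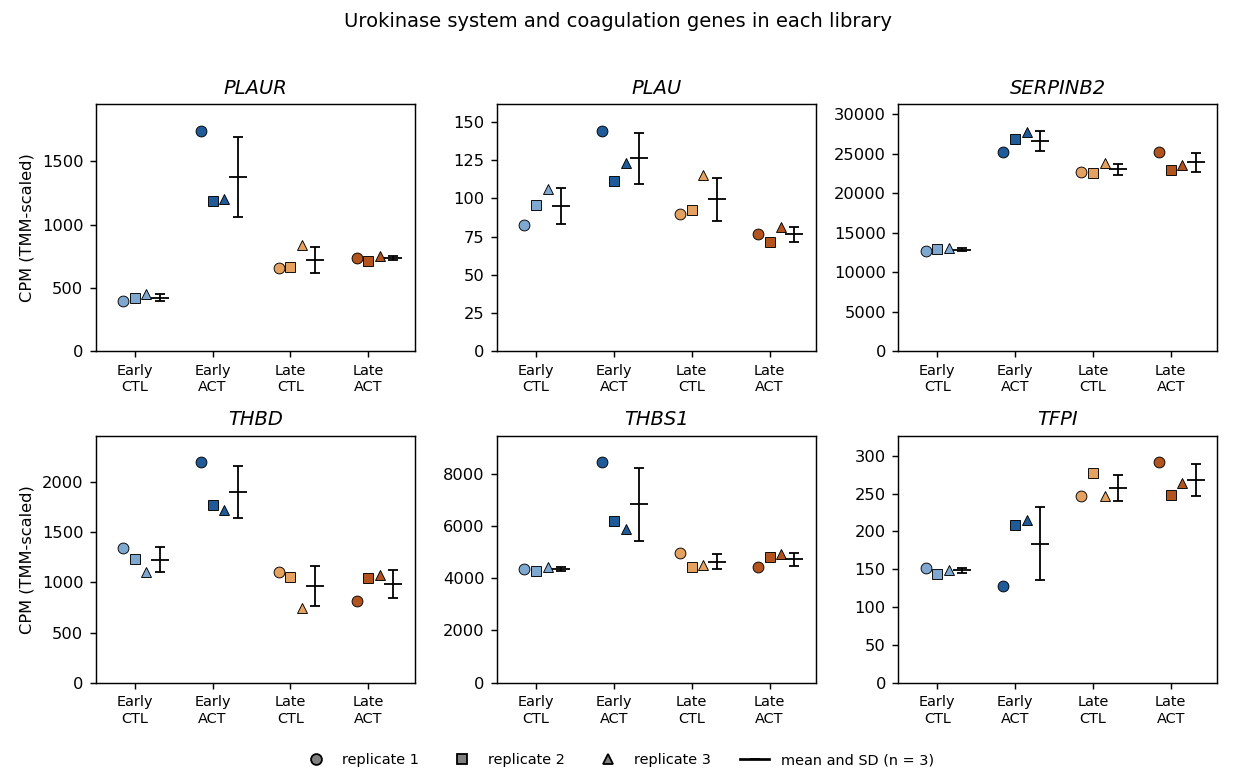
Level of each of the 6 genes in TMM-scaled CPM (vertical axes from 0) in each library, by group; symbols mark the replicate and the bar beside them the mean and SD of 3 libraries. PLAUR and THBS1 are highest in the 3 Early ACT libraries, SERPINB2 is lowest in the 3 Early CTL libraries, and TFPI is higher in all 6 late libraries than in all 6 early ones.

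PLAUR encodes the urokinase receptor, and lies on chromosome 19 from 38923132 to 38948232 (ENSMMUG00000004616, build Mmul_8.0.1, as are all positions here). Its level was 399.2, 417.2 and 451.0 CPM in Early CTL, 1739, 1184 and 1200 in Early ACT, 659.4, 662.1 and 836.6 in Late CTL, and 736.9, 714.5 and 748.3 in Late ACT. Every Early CTL library was below every other library, every Early ACT library was above, and the late groups overlapped. In unstimulated cells PLAUR rose from early to late by 0.77 ± 0.13 on the log2 scale (1.71-fold, edgeR adjusted p = 6.51e-05). In stimulated cells it fell by 0.90 ± 0.13 (edgeR adjusted p = 1.13e-05). The direction with time was therefore opposite in unstimulated and stimulated cells, and the test of the responses below is also the test of this difference.

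On stimulation, PLAUR rose in early cells by 1.70 ± 0.14 (3.25-fold, edgeR adjusted p = 1.49e-09), the largest of the 6 values. In late cells the difference was 0.03 ± 0.13 (edgeR adjusted p = 0.9985). The late response minus the early one was -1.67 ± 0.19 (edgeR adjusted p = 2.03e-06). Early ACT 1 had the highest PLAUR level of all libraries, and without it the early response was 1.5 ± 0.08 and the difference of responses -1.47 ± 0.11, both past the threshold.

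PLAU encodes urokinase itself, the protease that binds PLAUR (chromosome 9, 58450165 to 58457037, ENSMMUG00000009906). The 3 libraries of each group gave 82.7, 95.8 and 106.1 CPM in Early CTL, 144.2, 111.3 and 123.4 in Early ACT, 90.0, 92.3 and 115.6 in Late CTL, and 76.5, 71.8 and 81.2 in Late ACT. The Late ACT libraries were the 3 lowest, and Early CTL, Late CTL and Early ACT followed, each overlapping the next. PLAU in stimulated cells fell with time by 0.71 ± 0.13 (1.64-fold, edgeR adjusted p = 0.000211). In unstimulated cells the difference was 0.07 ± 0.13 (edgeR adjusted p = 0.714).

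Stimulated minus unstimulated PLAU was 0.40 ± 0.13 early (edgeR adjusted p = 0.0675) and -0.38 ± 0.14 late (edgeR adjusted p = 0.9985). Neither passed, although at each time the stimulated and unstimulated libraries did not overlap. The difference of these responses was -0.78 ± 0.19 and passed (edgeR adjusted p = 0.0337). That call was lost in 9 of 18 alternatives, among them leaving out Early CTL 1 or 2, Late CTL 2 or 3, or any Late ACT library, with an adjusted p of up to 0.154.

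The ratio of receptor to ligand reads was not the same in all groups. There were 4.83, 4.35 and 4.25 PLAUR reads per PLAU read in Early CTL, 12.1, 10.6 and 9.73 in Early ACT, 7.33, 7.18 and 7.24 in Late CTL, and 9.63, 9.95 and 9.21 in Late ACT. The ratio was lowest in the Early CTL libraries and next lowest in Late CTL, and the stimulated groups overlapped each other but neither unstimulated group. These ratios come from unscaled reads of genes of unequal length, so they compare libraries, not the genes.

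SERPINB2 encodes an inhibitor of urokinase that is found largely inside the cell (chromosome 18, 53484635 to 53497325, ENSMMUG00000016617). It held 1.39 to 1.41% of all counts in Early CTL, 2.21 to 2.51% in Early ACT, 2.31 to 2.43% in Late CTL and 2.31 to 2.50% in Late ACT. Its level was 12627, 12899 and 13021 CPM in Early CTL, 25175, 26893 and 27691 in Early ACT, 22665, 22511 and 23787 in Late CTL, and 25214, 22952 and 23501 in Late ACT. The Early CTL libraries were the lowest by a wide margin, and the other 9 lay close together, with Late CTL overlapping Late ACT and Late ACT overlapping Early ACT.

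SERPINB2 rose by 0.84 ± 0.10 from early to late in unstimulated cells (1.79-fold, edgeR adjusted p = 1.87e-07). In stimulated cells the difference was -0.15 ± 0.10 (edgeR adjusted p = 0.221), and without Early ACT 1 it was -0.21 ± 0.06 and passed (adjusted p = 0.00766). On stimulation SERPINB2 rose in early cells by 1.05 ± 0.10 (2.07-fold, edgeR adjusted p = 2.12e-08) and differed by 0.06 ± 0.10 in late cells (adjusted p = 0.9985). The late minus the early response was -0.99 ± 0.14 (edgeR adjusted p = 4.75e-05), and -1.03 ± 0.09 without Early ACT 1. For this gene, unlike PLAUR, the unstimulated late libraries were at a level near that of stimulated early ones: 22987 ± 696.4 CPM against 26586 ± 1286 (SD, n = 3). Every Late CTL library was still below every Early ACT library, and these groups were not tested against each other.

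**Figure D2:**
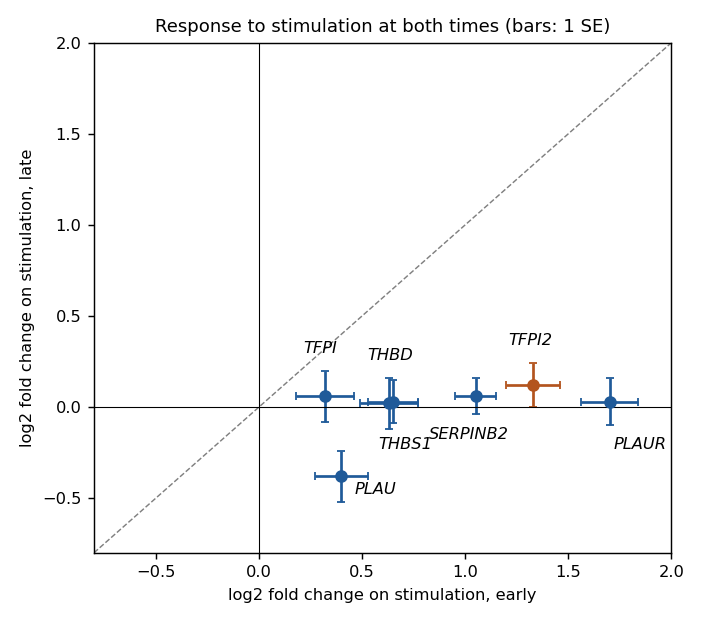
Log2 fold change on stimulation in early cells (horizontal) against that in late cells (vertical), with bars of 1 standard error, for the 6 genes (blue) and TFPI2 (orange); the dashed line marks equal responses. All 7 points lie below the line, with early values from 0.32 to 1.70 and late values from -0.38 to 0.12.

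THBD encodes thrombomodulin, the thrombin receptor of the protein C pathway (chromosome 10, 56190839 to 56192551, ENSMMUG00000016814). Its level was 1348, 1231 and 1104 CPM in Early CTL, 2197, 1777 and 1722 in Early ACT, 1107, 1050 and 741.8 in Late CTL, and 819.0, 1046 and 1076 in Late ACT. The late groups overlapped each other and were lowest on average, Early CTL reached down to the top of Late CTL, and Early ACT was above all other libraries. THBD fell with time in stimulated cells by 0.95 ± 0.14 (1.93-fold, edgeR adjusted p = 1.26e-05). In unstimulated cells the value was -0.34 ± 0.14 and missed the threshold (edgeR adjusted p = 0.0552), while it passed in 8 of 19 alternatives (adjusted p from 0.00414 to 0.272 over all of them). These were no composition factors, no low-count filter, and leaving out Early CTL 3, Early ACT 2 or 3, Late CTL 1 or 2, or Late ACT 1. The authors' deposited table lists THBD in unstimulated cells at -0.33 ± 0.12 (adjusted p = 0.0287).

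THBD rose on early stimulation by 0.63 ± 0.14 (1.55-fold, edgeR adjusted p = 0.00514) and differed by 0.02 ± 0.14 on late stimulation (adjusted p = 0.9985). The early call was lost without Early ACT 1 (0.51 ± 0.19, adjusted p = 0.129) and without Early CTL 3 (adjusted p = 0.0563). The difference of responses was -0.61 ± 0.20 and did not pass (edgeR adjusted p = 0.167), though it did without Late CTL 3 (-0.77, adjusted p = 0.0256) or the low-count filter (adjusted p = 0.0425).

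THBS1 encodes thrombospondin-1, a secreted glycoprotein that binds CD36 and CD47 and activates latent TGF-beta (chromosome 7, 15890235 to 15904268, ENSMMUG00000006035). Libraries gave 4352, 4283 and 4431 CPM in Early CTL, 8429, 6177 and 5880 in Early ACT, 4950, 4446 and 4496 in Late CTL, and 4435, 4799 and 4931 in Late ACT. Early ACT stood above all other libraries, with Early ACT 1 well above its partners, and the remaining 9 libraries lay within a narrow range. THBS1 rose on early stimulation by 0.65 ± 0.12 (1.57-fold, edgeR adjusted p = 0.000666), and by 0.47 ± 0.07 without Early ACT 1. In stimulated cells it fell with time by 0.53 ± 0.12 (edgeR adjusted p = 0.00113), and by 0.37 ± 0.07 without that library.

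In unstimulated cells the THBS1 difference with time was 0.09 ± 0.12 (edgeR adjusted p = 0.564), and on late stimulation it was 0.03 ± 0.12 (adjusted p = 0.9985). The difference of its responses was -0.62 ± 0.17 (edgeR adjusted p = 0.0632). Leaving out any Early ACT library brought it past the threshold, at -0.44 (adjusted p = 0.00109), -0.69 (0.0379) and -0.72 (0.0201) for Early ACT 1, 2 and 3.

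TFPI encodes the inhibitor of the tissue factor pathway (chromosome 12, 74838426 to 74932409, ENSMMUG00000009448). It was measured at 151.5, 144.2 and 149.6 CPM in Early CTL, 128.1, 207.9 and 215.2 in Early ACT, 247.3, 276.7 and 247.2 in Late CTL, and 291.2, 248.7 and 263.7 in Late ACT. All 6 late libraries were above all 6 early ones, and unstimulated and stimulated libraries overlapped at each time. TFPI rose with time by 0.80 ± 0.14 in unstimulated cells (1.74-fold, edgeR adjusted p = 9.8e-05) and by 0.54 ± 0.14 in stimulated cells (1.45-fold, edgeR adjusted p = 0.00421). It was the member that rose with time in both. Without Early ACT 1, the lowest library for this gene, the rise in stimulated cells was 0.32 ± 0.09 (adjusted p = 0.0024).

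On stimulation TFPI differed by 0.32 ± 0.14 early (edgeR adjusted p = 0.197) and 0.06 ± 0.14 late (adjusted p = 0.9985), and the difference of responses was -0.26 ± 0.20 (adjusted p = 0.692). Without Early ACT 1 the early rise was 0.51 ± 0.09 (adjusted p = 9.04e-06) and the difference of responses -0.46 ± 0.12 (adjusted p = 0.0101). Both calls thus depend on that library. There were 8.9, 8.53 and 7.38 THBD reads per TFPI read in Early CTL, 17.2, 8.55 and 8.0 in Early ACT, 4.47, 3.79 and 3.0 in Late CTL, and 2.81, 4.21 and 4.08 in Late ACT. The ratio was lower in every late library than in any early one, and the Early ACT 1 value was far above the rest.

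Counted over the 6 genes, 3 were higher and none lower at 19 months in unstimulated cells, where 40.7% of all genes tested were called in some direction, 20.9% higher and 19.8% lower. Their median log2 fold change was 0.43, against 0.02 for all genes. In stimulated cells 1 was higher and 4 were lower, where 38.8% of all genes were called, 19.1% higher and 19.7% lower, and the median was -0.62 against 0.05. On early stimulation 4 of 6 were higher, where 7.23% of all genes were called, 4.57% higher and 2.66% lower, with a median of 0.64 against 0. In the difference of responses 3 of 6 were lower, where 1.41% of all genes were called and 1.23% lower, with a median of -0.70 against -0.01. These comparisons share libraries: the Early CTL group enters both the early response and the unstimulated comparison with time. The Early ACT group enters both the early response and the stimulated comparison with time, and all 4 groups enter the difference of responses. The rises on early stimulation and the falls with time in stimulated cells are therefore not separate results.

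On late stimulation 0 of 6 genes passed, as did 0 of 11826 genes in edgeR's test. An unadjusted p under 0.05 was reached by 527 of all genes, among them PLAU, and DESeq2 called 15 of 8987 genes with an adjusted p.

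**Figure D3:**
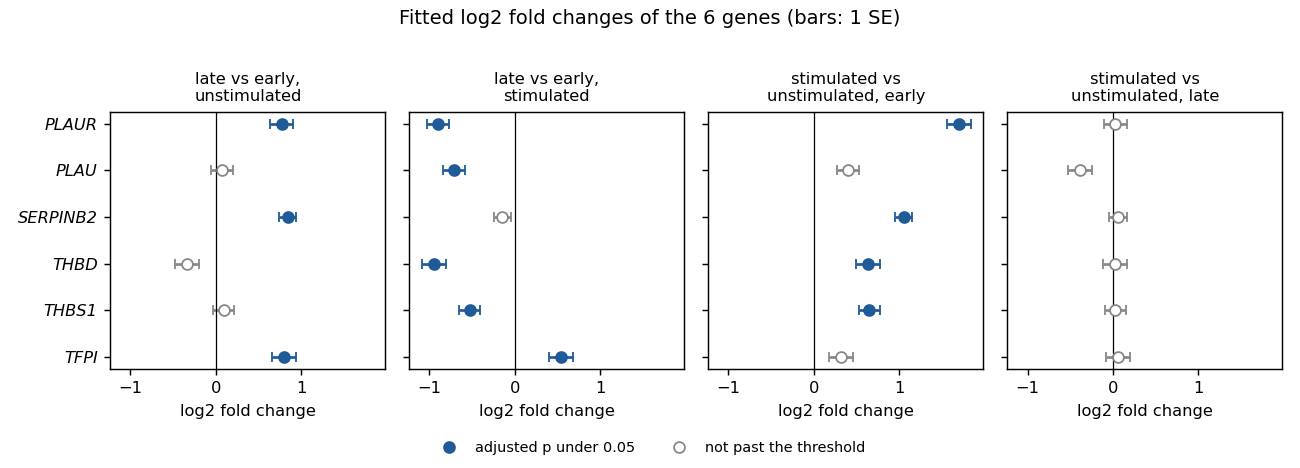
Log2 fold change of each gene (points) with 1 standard error (bars) in 4 comparisons; filled points passed an adjusted p of 0.05 in edgeR's quasi-likelihood test. The filled points number 3, 5, 4 and 0 from left to right, and PLAUR lies to the right of 0 in the first comparison and to the left in the second.

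The authors' deposited table for late over early cells gives like values for the genes it lists. In unstimulated cells that authors' deposited table has PLAUR at 0.79 ± 0.10, SERPINB2 at 0.86 ± 0.06 and TFPI at 0.81 ± 0.09 (log2, SE). For stimulated cells the authors' deposited table has PLAUR at -0.90 ± 0.16, PLAU at -0.71 ± 0.15, THBD at -0.94 ± 0.15, THBS1 at -0.52 ± 0.15 and TFPI at 0.55 ± 0.18. The genes it does not list there were those that missed the threshold in edgeR, except that THBD in unstimulated cells is listed, as given above.

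Genes whose log2 CPM ran most like that of each member over the 12 libraries were looked for among 5479 named genes with a mean of at least 10 CPM. The libraries share 4 groups, so the correlations describe group patterns and carry no p. SERPINB2 ran most like CSF3 (Pearson r = 0.992) and IL23A (0.986), which encode a granulocyte growth factor and a subunit of interleukin-23. CSF3 averaged 173.1 CPM in Early CTL, 906.2 in Early ACT, 577.1 in Late CTL and 689.2 in Late ACT. PLAUR ran most like PPP1R15A (0.985), a regulator of the stress response to unfolded proteins, and SHMT2 (0.981), a mitochondrial serine enzyme. THBD was closest to IL10RA (0.994), an interleukin-10 receptor chain, and EHD1 (0.987), and THBS1 to the amino acid transporter SLC1A5 (0.971) and RAB7A (0.971). TFPI was closest to SLC30A7 (0.991), a zinc transporter, and ST3GAL6 (0.989), a sialyltransferase that averaged 296.0, 408.3, 630.3 and 687.5 CPM in the same order of groups. PLAU had the weakest likeness, at 0.936 for DDAH2 and 0.925 for HTT.

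Related genes were taken from 5 lists of the plasminogen, urokinase receptor, coagulation, protein C and thrombospondin systems, 75 genes of which 66 had a row and 45 passed the low-count filter. Of the 45, 13 were higher and 11 lower at 19 months in unstimulated cells, where 40.7% of all genes were called, and 11 were higher and 11 lower in stimulated cells, where 38.8% were. On early stimulation 4 were higher and 1 lower, against 7.23% of all genes called, and on late stimulation none was called. In the difference of responses 1 was lower, against 1.41% of all genes called, so its share was near that of all genes. The counts of each list with time, given below, stand against the same 40.7% and 38.8%. The medians of the 45 genes were 0.18, -0.05, 0.10, -0.05 and -0.20 in that order, against 0.02, 0.05, 0, 0 and -0.01 for all genes.

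TFPI2, a relative of TFPI that inhibits plasmin and other serine proteases, was the gene lower in the difference of responses. Its level was 43.5, 48.6 and 49.1 CPM in Early CTL, 99.7, 121.6 and 131.7 in Early ACT, 166.6, 165.8 and 182.5 in Late CTL, and 195.6, 167.1 and 197.4 in Late ACT. Every late library was above every early one, and the early groups did not overlap. TFPI2 rose with time by 1.87 ± 0.13 in unstimulated cells (3.65-fold, edgeR adjusted p = 3.55e-11) and by 0.66 ± 0.12 in stimulated cells (edgeR adjusted p = 0.000161). It rose on early stimulation by 1.33 ± 0.13 (edgeR adjusted p = 4.42e-08), and the late minus the early response was -1.20 ± 0.18 (edgeR adjusted p = 0.000132). Its Early ACT libraries lay between the Early CTL and the Late CTL ones.

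Among partners of the urokinase receptor, the integrin chains ITGAM, ITGB2 and ITGA5 fell with time. ITGAM and ITGB2 encode the chains of Mac-1, the integrin that binds PLAUR and fibrinogen on myeloid cells. ITGAM averaged 419.9 ± 7.33 CPM in Early CTL and 197.0 ± 10.8 in Late CTL, a fall by 1.09 ± 0.11 (edgeR adjusted p = 1.44e-08), and 413.8 ± 7.08 in Early ACT and 185.5 ± 7.61 in Late ACT (SD, n = 3), a fall by 1.15 ± 0.11 (edgeR adjusted p = 9.12e-09). ITGB2 fell by 1.26 ± 0.14 in unstimulated cells (2.39-fold, edgeR adjusted p = 8.5e-08) and by 1.35 ± 0.14 in stimulated cells (edgeR adjusted p = 4.44e-08). In unstimulated cells PLAUR and these chains of Mac-1 thus differed in direction. ITGAM also belongs to the list of CD14 monocyte and macrophage markers above. ITGA5, a fibronectin receptor chain, fell by 0.42 ± 0.11 and 0.53 ± 0.11 in unstimulated and stimulated cells. Another chain, ITGB1, named after its values were seen, rose in stimulated cells by 0.44 ± 0.14 (edgeR adjusted p = 0.0164) and by 0.21 without Early ACT 1, a call lost without Late ACT 2 or 3.

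IGF2R, a lysosomal sorting receptor that binds PLAUR, rose with time by 0.57 ± 0.12 in unstimulated cells (edgeR adjusted p = 0.000573). The formyl peptide receptors were the members of this list called on early stimulation. FPR2 rose by 0.58 ± 0.15 (edgeR adjusted p = 0.0184) and FPR3 fell by 0.90 ± 0.23 (adjusted p = 0.0158), each lost in 4 of 19 alternatives. For FPR2 these included leaving out any Early CTL library, and for FPR3 those without Early ACT 2, Early CTL 1 and Early CTL 3. FPR1 rose by 0.50 ± 0.16 (adjusted p = 0.0481), a call lost in 12 of 19 alternatives, among them leaving out Early ACT 1 or any Early CTL library, and fell with time in stimulated cells by 0.75 ± 0.16 (edgeR adjusted p = 0.000586). In this list 2 of 12 tested genes were higher and 3 lower with time in unstimulated cells, and 2 higher and 4 lower in stimulated cells, against 40.7% and 38.8% of all genes called in either direction.

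Of 10 tested genes of plasminogen activation, 2 were higher and 3 lower with time in each of the unstimulated and stimulated cells, near the 40.7% and 38.8% of all genes called. LRP1, the endocytic receptor that clears urokinase bound to its inhibitor, fell by 0.86 ± 0.14 (184.9 ± 9.92 to 101.8 ± 1.94 CPM, SD, n = 3; edgeR adjusted p = 2.66e-05) and in stimulated cells by 0.93 ± 0.14 (adjusted p = 1.03e-05). Its chaperone LRPAP1 fell by 0.67 ± 0.17 in stimulated cells (edgeR adjusted p = 0.00296). ANXA2, a plasminogen receptor, fell there by 0.49 ± 0.13 (adjusted p = 0.0046), and by 0.30 without Early ACT 1. PLAT, the tissue-type plasminogen activator, was low but rose from 1.53 ± 0.562 to 5.08 ± 1.43 CPM in unstimulated cells, by 1.75 ± 0.36 (edgeR adjusted p = 0.000373), and by 1.29 ± 0.33 in stimulated cells (adjusted p = 0.00322). SERPINE2, an inhibitor of thrombin and plasminogen activators, rose by 1.46 ± 0.38 in unstimulated cells (adjusted p = 0.00332), and its call in stimulated cells was lost without Early ACT 1 (adjusted p = 0.066) or 2 or Late ACT 1 or 3. SERPINA5, the protein C inhibitor, fell in unstimulated cells by 0.89 ± 0.28 (edgeR adjusted p = 0.0127). That call was lost without Early CTL 2 or Late CTL 2. SERPINB6 was the gene of this list called on early stimulation (0.80 ± 0.19, edgeR adjusted p = 0.00685).

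**Figure D4:**
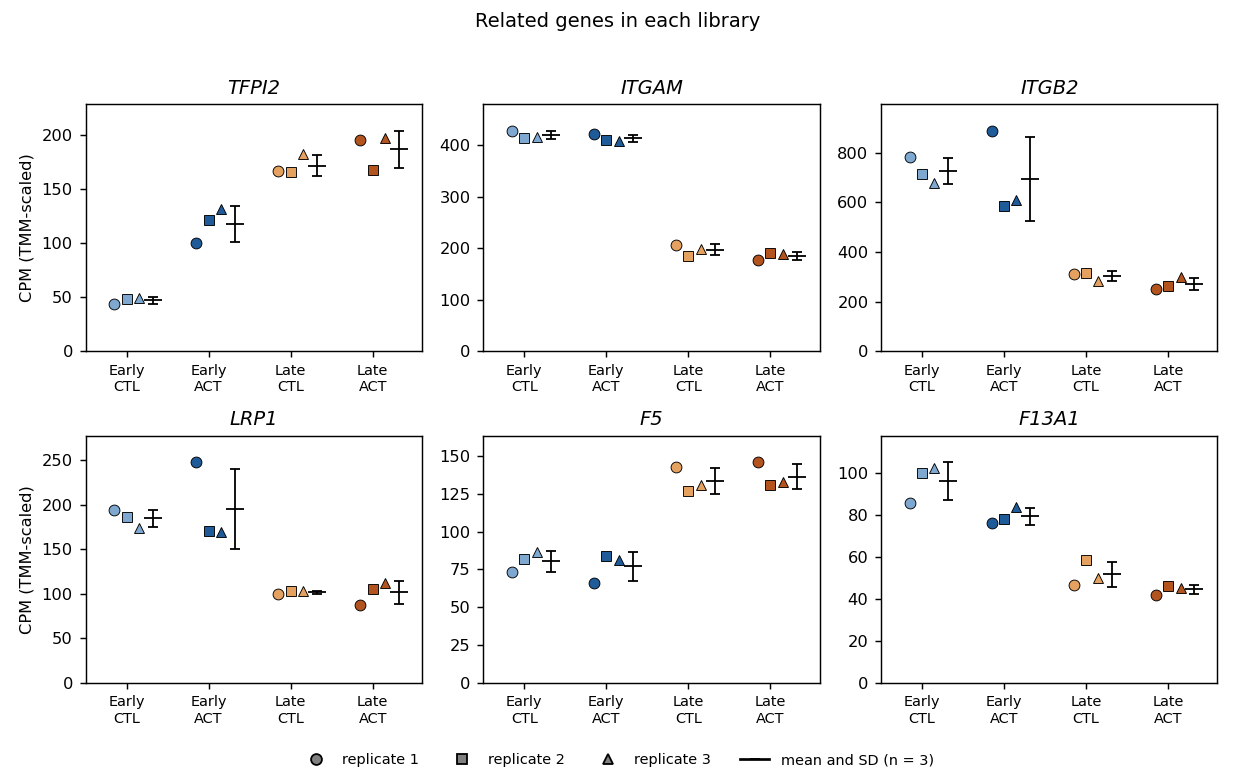
Level in TMM-scaled CPM (vertical axes from 0) of TFPI2, the Mac-1 chains ITGAM and ITGB2, the receptor LRP1 and the coagulation genes F5 and F13A1 in each library; symbols mark the replicate and the bar the mean and SD of 3 libraries. TFPI2 and F5 are higher in all late than in all early libraries, and the other 4 genes are lower in all late than in all early libraries.

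Among 10 tested coagulation factors, 4 were higher and 2 lower with time in unstimulated cells, where 40.7% of all genes were called, and 3 higher and 2 lower in stimulated cells, where 38.8% were. F5, the cofactor that speeds thrombin formation, rose by 0.73 ± 0.12 (80.5 ± 6.9 to 133.5 ± 8.43 CPM, SD, n = 3; edgeR adjusted p = 4.79e-05) and in stimulated cells by 0.82 ± 0.12 (adjusted p = 1.35e-05). F13A1, the transglutaminase that cross-links fibrin and is abundant in monocytes, fell by 0.89 ± 0.13 (96.1 ± 9.03 to 51.7 ± 6.16 CPM, edgeR adjusted p = 6.77e-06) and by 0.83 ± 0.13 in stimulated cells (adjusted p = 2.03e-05). F12, the contact factor, was near the low end of detection, at 2.74 ± 0.253 CPM in Early CTL and 0.69 ± 0.204 in Late CTL (edgeR adjusted p = 0.0019). FGB, a fibrinogen chain best known from liver, had no read in any early library and 52 reads in the 3 Late CTL and 38 in the 3 Late ACT libraries. Set against a floor of 3 counts over the early group, it was at least 26.4-fold higher in unstimulated and at least 15.7-fold higher in stimulated cells, and with it at that bound the list medians remained 0.42 and 0.57. Genes under a mean of 5 CPM were called higher with time far more often than lower, 1123 against 240 of 4029 in unstimulated cells, and the part of this in PLAT, FGB and other scarce genes was not tested.

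In the thrombin receptor and protein C list, 3 of 6 tested genes were higher and none lower in each comparison with time, against 40.7% of all genes called in unstimulated and 38.8% in stimulated cells. Besides TFPI2 these were PROCR, the endothelial protein C receptor, at 1.95 ± 0.53 in unstimulated cells (edgeR adjusted p = 0.0049), and F2RL2, a thrombin receptor. PROCR in stimulated cells was at 1.57 ± 0.56 (adjusted p = 0.0287), lost in 6 of 18 alternatives, among them leaving out Early ACT 1 or 3 or Late ACT 1 or 3. F2RL2 had 16 reads in Late CTL, of which Late CTL 3 held 14, and its call there was lost in 8 of 18 alternatives, among them DESeq2, the replicate block, and leaving out Late CTL 3, any Early CTL library or Late ACT 1 or 3. In stimulated cells its call was lost in 6 of 19, among them DESeq2, the replicate block, and leaving out Early ACT 1 (adjusted p = 0.0618) or 3 or Late ACT 1 or 3.

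Of 7 tested genes around thrombospondin, 2 were higher and 3 lower with time in unstimulated cells, and 1 higher and 2 lower in stimulated cells, against 40.7% and 38.8% of all genes called. SDC4, a cell surface proteoglycan named after its values were seen, was higher in unstimulated cells by 0.73 ± 0.28 (edgeR adjusted p = 0.0408), a call lost in 11 of 19 alternatives. The THBS1 receptor CD47, a signal against phagocytosis, fell by 0.88 ± 0.16 in unstimulated cells (edgeR adjusted p = 0.000157) and by 0.62 ± 0.16 in stimulated cells (adjusted p = 0.00433). CD36, a scavenger receptor, fell by 1.37 ± 0.28 in unstimulated cells, from 10.2 ± 1.76 to 3.96 ± 0.978 CPM (SD, n = 3; edgeR adjusted p = 0.000421). TGFB1 fell by 0.40 ± 0.11 and 0.53 ± 0.11 in unstimulated and stimulated cells (edgeR adjusted p = 0.00699 and 0.000822). LTBP1, which tethers latent TGF-beta to the matrix, had 3 reads in the Early CTL group against 38 in Late CTL, and 12 in Early ACT against 54 in Late ACT, and passed as higher in both comparisons (edgeR adjusted p = 0.000304 and 0.00819).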

How the data were processed

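The authors deposited a table of raw read counts per gene, whole numbers with no scaling, for 12 libraries, each matched by its column name to a sample, with 0 columns left over. Per the labels' protocols, cDNA was made with SMART-Seq v4 and libraries with Nextera XT, a method that leaves strand unmarked. The submitters' processing notes name bcl2fastq and build Mmul_8.0.1, with the aligner and counter not given in the sources used here. In their tables of late over early cells, the authors deposited log2 fold changes, standard errors and adjusted p-values, listing only genes with an adjusted p-value under 0.05.

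Identifiers were named from a symbol table, then from the authors' tables, which gave 15685 of 32386 genes a usable name. The counts were tested in R 4.3.3 with edgeR 4.0.16 (TMM, filterByExpr by group, robust quasi-likelihood F test, 1 coefficient per group, Benjamini-Hochberg over 11826 genes, threshold 0.05). Standard errors were obtained by dividing the size of the log2 fold change by the root of F. Levels are CPM scaled with TMM factors from 0.8786 to 1.0974, so they differ from unscaled CPM. Log2 CPM for correlations used a prior count of 2. DESeq2 1.42.0 was an alternative, beside other scalings, no low-count filter, a replicate block, only the compared groups, and leaving out each library. The pipeline was tested on simulated data. Replicate libraries differed by more than sampling noise (chi-square per degree of freedom from 2.76 to 29.3), so none was counted as a copy of another library. This check cannot tell libraries of the same well or animal from those of different ones. Reads carry no molecular identifiers, so counting floors cover counting error only. Without strand, reads of overlapping antisense genes cannot be told apart.

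The text names all 7 genes and TET2, of each pathway list up to 4 called genes per comparison with the smallest p, and for each member the 2 genes most like it. Members and lists were chosen with earlier results of these data known. A gene of the lists is not reported here.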

Additional observations from a re-analysis of the deposited data

Results flagged for a closer look

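The response to stimulation differed between the early and the late cells, by edgeR's test of the difference itself, for 3 of the 6 genes and for TFPI2. Of all 11826 genes tested, 1.41% were called in this difference, and 0 were called on late stimulation. The late log2 response minus the early one was -1.67 for PLAUR, -0.78 for PLAU, -0.99 for SERPINB2 and -1.20 for TFPI2. PLAUR, SERPINB2 and TFPI2 passed in all 18 alternatives tried for this difference, and PLAU in 9 of them. With 3 libraries a group, Dixon's test for an outlying value was not run on single genes.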

How the results depend on the processing

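Over 19 alternatives (18 for the difference of responses), no called value of the 6 genes or TFPI2 changed sign: of 658 values for 35 results, 625 stayed on the same side of the threshold, 12 lost a call and 21 gained one. Uncalled values near 0 did change sign: PLAU with time in unstimulated cells ran from -0.07 to 0.20, PLAUR on late stimulation from -0.03 to 0.15 and THBD there from -0.14 to 0.14. THBD on early stimulation also lost its call without composition factors (0.35, adjusted p = 0.0787), and PLAU there passed in DESeq2 (adjusted p = 0.0307) and without Early ACT 2 (0.0472) or Late CTL 3 (0.0477). Deviations from the group means correlated at -0.086 to 0.097 between same-numbered libraries and at -0.073 to 0.076 between differently numbered ones. Deviations from a mean of 3 libraries depend on each other, so these values cannot exclude a pairing. The labels do not tie a number to an animal. With a replicate block 3, 5, 4, 0 and 2 of the 6 genes were called in the 5 comparisons, PLAU being lost from the last (adjusted p = 0.0511).

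Members called lower in the difference of responses numbered 3, but 5 with no low-count filter and 2 to 5 on leaving out a library (5 without Early ACT 1). Pathway genes called there numbered 1, 2 in DESeq2 and 1 to 3 on leaving out a library, and all genes 167, 313 in DESeq2 and 95 to 546 (546 without Early ACT 1). On early stimulation, pathway genes called numbered 5, but 10 without composition factors, 3 with only the compared groups and 2 to 7 on leaving out a library. All genes called there numbered 855, 2413 without composition factors, 503 with only the compared groups and 464 to 1554 (the highest without Early ACT 1, the lowest 3 without an Early CTL library). On late stimulation all genes called numbered 0, 2 with upper-quartile factors, 15 in DESeq2, 5 without the filter, 10 with only the compared groups and 0 to 29. The cause of these shifts was not tested.

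Without composition factors the median of all genes moved to -0.28 on early stimulation, 0.20 with time in stimulated cells and 0.23 in the difference of responses. The share of calls that were higher was 63.3% against 11.6% without these factors on early stimulation, and 13.2% against 61.4% in the difference. With time it was 51.3% in unstimulated cells, against 63.3% with upper-quartile factors, 64.4% in DESeq2 and 43.1% without composition factors, and 49.3% in stimulated cells, against 61.0%, 58.6% and 65.2%. With 3 libraries a group, differences near the standard errors given could not be detected, and scarce genes such as FGB, LTBP1 and F2RL2 rest on few reads.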
